A study of Mus musculus with 15 samples.

Results

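The genes described here are 10 genes of the mammalian circadian clock, chosen by name from the deposited table of TPM (transcript abundance corrected for gene length and scaled to a fixed total per library), which holds 20610 genes: Per1, Per2, Per3, Cry1, Cry2, Clock, Nr1d1, Nr1d2, Dbp and Ciart. Every one of the 10 was in the table, and each passed the filter of at least 1 TPM in at least 5 libraries that left 13351 genes for testing. The libraries came from the cortex of wild-type (WT) male mice at postnatal day 28, from which neurons, astrocytes and microglia were isolated magnetically, with 5 libraries of each cell type. Polyadenylated RNA was sequenced, and the question posed by the series was how expression differs between these cells. The labels state neither the strain, the mouse behind each library nor the time of day of collection, so p-values measure only the spread between these libraries, which may be technical.

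The circadian clock of mammalian cells is a transcriptional feedback loop. CLOCK and its partner BMAL1 (gene Arntl) bind E-box elements and activate the Per and Cry genes, whose protein products return to the nucleus and inhibit that activation, while REV-ERB alpha and beta (genes Nr1d1 and Nr1d2) repress Arntl in a second loop. Dbp and Ciart are E-box targets of the same activator: DBP is a PAR bZIP transcription factor that acts on D-box elements, and CIART (also called CHRONO) is a repressor of the CLOCK and BMAL1 pair. The transcripts of most of these genes vary with the time of day in many tissues.

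Some of the elements through which the loop is known to work were looked for in the reference promoters. RefSeq promoter windows (GRCm38.p6, 250 bases before to 50 bases after the annotated start, 300 bases each) were held for 9 of the 10 members, in 12 windows. The search covered 3 motifs on both strands, with letters chosen after some of these windows had been read: the E-box CACGTG, the D-box TTATGTAA and the RRE core TAGGTCA, to which REV-ERB and ROR proteins are known to bind. The E-box was found in 3 members and the D-box in 1, while no member window held the RRE core. Across all 32851 reference windows, 7.15% held the E-box, 0.938% the D-box and 2.61% the RRE core. These are shares of windows, not of genes, and some genes have several windows. The 4 windows with a match are shown 5′ to 3′ on the strand of the gene, with the motifs in capitals, because they place the Ciart, Cry1 and Per1 E-boxes and the Per3 D-boxes beside the levels given later.
Ciart, chr3:95882179-95882478, minus strand: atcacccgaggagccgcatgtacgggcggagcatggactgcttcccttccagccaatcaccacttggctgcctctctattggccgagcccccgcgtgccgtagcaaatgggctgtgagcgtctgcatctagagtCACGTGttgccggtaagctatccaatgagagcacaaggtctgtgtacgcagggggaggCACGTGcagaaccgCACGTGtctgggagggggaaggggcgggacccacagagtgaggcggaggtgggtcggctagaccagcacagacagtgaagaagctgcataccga
Cry1, chr10:85185005-85185304, minus strand: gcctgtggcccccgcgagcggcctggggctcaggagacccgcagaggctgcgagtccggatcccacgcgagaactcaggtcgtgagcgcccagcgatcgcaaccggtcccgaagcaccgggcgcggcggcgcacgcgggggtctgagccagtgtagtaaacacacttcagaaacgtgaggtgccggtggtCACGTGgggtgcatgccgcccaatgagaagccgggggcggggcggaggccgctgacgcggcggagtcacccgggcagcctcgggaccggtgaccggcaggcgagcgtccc
Per1, chr11:69098699-69098998, plus strand: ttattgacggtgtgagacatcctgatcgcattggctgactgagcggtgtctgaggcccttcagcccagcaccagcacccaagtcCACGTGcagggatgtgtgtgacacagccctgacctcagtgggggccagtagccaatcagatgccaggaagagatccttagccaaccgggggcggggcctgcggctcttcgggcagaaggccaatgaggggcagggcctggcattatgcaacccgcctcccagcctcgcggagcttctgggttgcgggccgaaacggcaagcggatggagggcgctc
Per3, chr4:151044616-151044915, minus strand: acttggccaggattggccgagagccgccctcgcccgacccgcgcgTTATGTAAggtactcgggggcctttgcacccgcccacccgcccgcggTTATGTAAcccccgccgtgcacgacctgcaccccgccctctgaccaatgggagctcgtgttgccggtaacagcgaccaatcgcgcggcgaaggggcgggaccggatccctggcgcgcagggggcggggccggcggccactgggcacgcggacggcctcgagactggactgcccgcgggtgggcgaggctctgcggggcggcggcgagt
The Ciart window held 3 E-boxes, which began 116, 58 and 44 bases before the start. In the Cry1 window the E-box began 60 bases before the start, and in the first of 2 Per1 windows it began 166 bases before. The Per3 window held 2 D-boxes, which began 205 and 158 bases before the start.

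The libraries carried the markers of their labelled cells, with other cell types present. Each cell type's own 8 markers had their highest summed level in its own libraries. All 8 astrocyte and all 8 microglia markers were higher in every library of their own type than in any other. This held for only 6 of the 8 neuron markers. Map2 averaged 25.9 TPM in neurons and 34.9 TPM in astrocytes, and Elavl4 15.4 and 12.1 TPM. In neuron libraries, however, the 8 endothelial markers summed to between 7979 and 12118 TPM, above the 583 to 1400 TPM of the 8 neuron markers, and all 8 endothelial markers were higher in every neuron library than in any other. Endothelial sums were 778 to 1361 TPM in astrocyte libraries and 98.7 to 199 TPM in microglia libraries. The 7 mural markers summed to 2378 to 4508 TPM in neuron libraries, 1519 to 2194 TPM in astrocyte libraries and 87.6 to 217 TPM in microglia libraries. The 7 mature oligodendrocyte markers summed to 117 to 10246 TPM in neuron libraries, 432 to 3786 TPM in astrocyte libraries and 246 to 69017 TPM in microglia libraries. No marker in these lists was at 0 in all libraries of a cell type, and the part of admixed cells in the results that follow was not tested. In bulk samples of this kind, fewer cells of a type and less RNA per cell cannot be told apart.

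Dbp had the highest mean of the 10 genes in all 3 cell types and Per2 the lowest. Mean Dbp was 136 ± 85.8 TPM in neurons, 333 ± 23.7 TPM in astrocytes and 36.4 ± 6.96 TPM in microglia (SD, n = 5 each). In neurons the order below Dbp was Ciart, Nr1d1, Nr1d2, Cry2, Per3, Clock, Cry1, Per1 and Per2, with means of 106 ± 72.2 TPM for Ciart down to 2.83 ± 1.41 TPM for Per2. In astrocytes Nr1d1 (122 ± 34.0 TPM) stood above Ciart (81.8 ± 8.45 TPM), followed by Cry2, Nr1d2, Per3, Cry1, Clock, Per1 and Per2. In microglia Nr1d2, Ciart, Nr1d1 and Clock lay together between 7.24 and 8.88 TPM on average, within the spread of their libraries, and Per3, Per1, Cry2 and Cry1 followed before Per2.

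**Figure D1:**
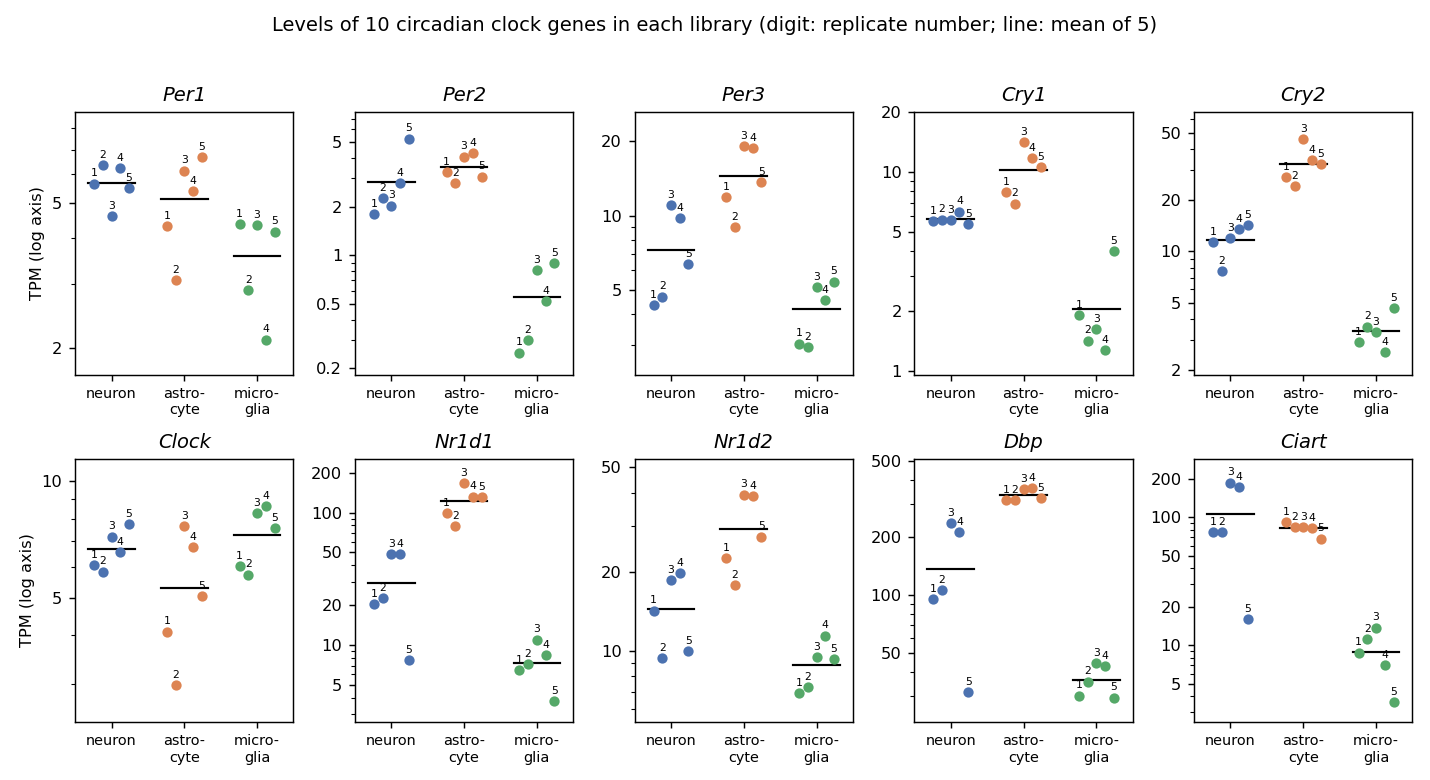
TPM of the 10 clock genes on a log axis in each library, with neurons left, astrocytes in the middle and microglia right; each point is a library with its replicate number and each line the mean of 5. Dbp, Nr1d1 and Ciart spread widely among neuron libraries, with library 5 lowest, while the 5 astrocyte libraries lie close together for Dbp and Ciart.

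Of the 10 clock genes, all but Clock had their lowest mean TPM in microglia, and none was called higher in neurons than in astrocytes; with median-of-ratios scaling and quantile normalization the Per1 difference for astrocyte minus microglia was -0.15 and -0.19, neither called. Values were compared as log2(TPM + 1) in limma, and a gene was called when its Benjamini-Hochberg adjusted p over all 13351 genes was below 0.05 and the log2 difference was at least 1; a difference on this scale understates the change of low genes such as Per2. Against astrocytes, neurons had 0 members higher and 3 lower (Cry2, Nr1d1 and Dbp), where 12.9% of all tested genes were called higher in neurons and 12.7% lower. Against microglia, neurons had 6 members higher and 0 lower, where the background was 29.5% higher and 9.74% lower. Astrocytes had 8 members higher than microglia and 0 lower, against a background of 32.3% higher and 10.2% lower. The median log2 difference of the 10 members was -0.82 for neuron minus astrocyte, 1.24 for neuron minus microglia and 1.74 for astrocyte minus microglia, beside -0.03, 0.48 and 0.57 for all tested genes. The last 2 comparisons share the microglia libraries and depend on the scaling. Median-of-ratios scaling moved the median of all genes by -0.51 and -0.54, and turned the split of calls over all genes to 2655 higher and 2107 lower in neurons than in microglia, in place of 3945 and 1300. For astrocytes against microglia that split became 2619 higher and 2285 lower, in place of 4313 and 1359. Under this scaling 3 members were called higher and 0 lower in neurons than in microglia, and 6 were higher and 1 (Clock) lower in astrocytes than in microglia.

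**Figure D2:**
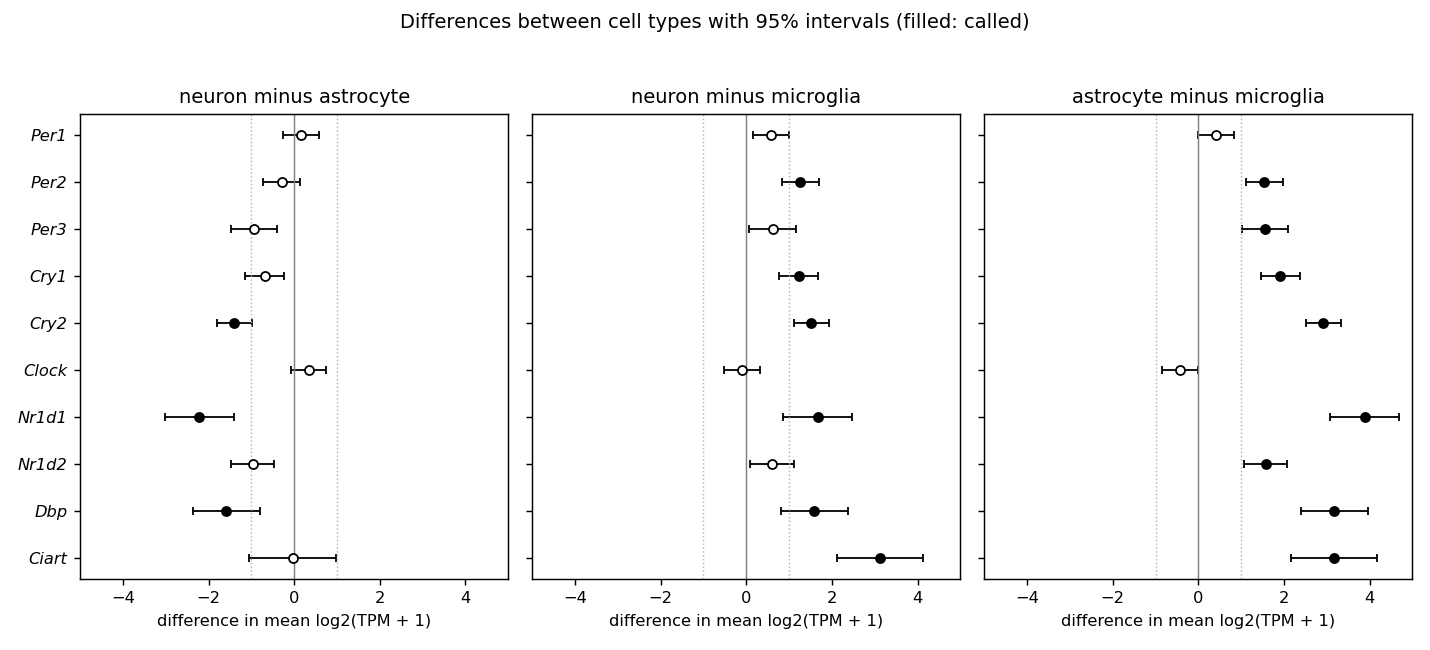
Difference in mean log2(TPM + 1) for each clock gene with its 95% interval from limma, in the 3 comparisons; filled points were called and dotted lines mark a difference of 1. All 6 called members of neuron minus microglia and all 8 of astrocyte minus microglia lie right of 0, and the 3 called members of neuron minus astrocyte lie left of 0.

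The Period genes encode the repressors whose build-up closes the loop. Per1, which is also induced by stimuli apart from the clock, was called in no comparison. It ranged from 4.6 to 6.36 TPM in neurons, 3.07 to 6.69 TPM in astrocytes and 2.11 to 4.38 TPM in microglia. Its log2 difference was 0.57 for neuron minus microglia (adjusted p = 0.0180 in limma), under the required 1.
Per2 had 1.80, 2.26, 2.03, 2.79 and 5.27 TPM in neuron libraries 1 to 5, 3.26, 2.79, 4.08, 4.29 and 3.07 TPM in the astrocyte libraries, and 0.25, 0.30, 0.81, 0.52 and 0.89 TPM in the microglia libraries. Neuron and astrocyte values overlapped, and every microglia library was below them all. The log2 difference was 1.26 for neuron minus microglia (95% interval 0.82 to 1.69, adjusted p = 3.1e-05) and 1.54 for astrocyte minus microglia (1.11 to 1.97, adjusted p = 2.7e-06). With median-of-ratios scaling the first was 0.97 and with quantile normalization 0.60, so it was no longer called. The second was 0.89 with quantile normalization, also below 1.
Per3 had 4.33, 4.70, 11.06, 9.77 and 6.36 TPM in neurons, 11.87, 9.0, 19.14, 18.84 and 13.64 TPM in astrocytes, and 3.03, 2.93, 5.12, 4.54 and 5.40 TPM in microglia. Libraries 1 and 2 were the lowest of each cell type, and only the astrocyte and microglia values were fully apart. Per3 was higher in astrocytes than in microglia by 1.56 on the log2 scale (adjusted p = 3.3e-05), a value that fell to 0.96 with median-of-ratios scaling. For neuron minus astrocyte it was -0.94 (95% interval -1.48 to -0.40, adjusted p = 0.0050), just short of the fold threshold, and it passed that threshold when neuron library 3, neuron library 4 or astrocyte library 2 was left out.

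The cryptochromes, which bind the CLOCK and BMAL1 pair and hold it inactive, were both highest in astrocytes. Cry1 had 5.66, 5.76, 5.75, 6.33 and 5.47 TPM in neurons, 7.93, 6.94, 14.19, 11.73 and 10.60 TPM in astrocytes, and 1.91, 1.42, 1.62, 1.27 and 3.99 TPM in microglia. The 3 cell types did not overlap. Among neuron libraries Cry1 varied less than nearly all genes, with an SD of 0.067 on the log2 scale that stood at percentile 1.09 of the tested genes. It was higher by 1.22 in neurons (95% interval 0.77 to 1.68, adjusted p = 7.1e-05) and by 1.91 in astrocytes (1.46 to 2.37, adjusted p = 3.3e-07) than in microglia. With median-of-ratios scaling and quantile normalization the first difference was 0.77 and 0.64 and was not called. For neuron minus astrocyte the Cry1 difference was -0.69 (95% interval -1.15 to -0.24, adjusted p = 0.0115 in limma), which was not called.
Cry2 had 11.34, 7.63, 12.02, 13.52 and 14.25 TPM in neurons, 27.24, 24.20, 45.67, 34.35 and 32.65 TPM in astrocytes, and 2.94, 3.61, 3.34, 2.56 and 4.63 TPM in microglia. Again no cell types overlapped, and the gene was called in all 3 comparisons. The log2 difference was -1.40 for neuron minus astrocyte (95% interval -1.81 to -0.99, adjusted p = 8.8e-06), 1.52 for neuron minus microglia (1.11 to 1.93, adjusted p = 1.8e-06) and 2.92 for astrocyte minus microglia (2.51 to 3.33, adjusted p = 2.8e-10).

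Clock, the DNA-binding activator, was the one member with no call and a higher mean in microglia than in astrocytes. It ranged from 5.84 to 7.74 TPM in neurons, 2.97 to 7.66 TPM in astrocytes and 5.74 to 8.63 TPM in microglia, and the 3 ranges overlapped. The log2 difference was -0.43 for astrocyte minus microglia (95% interval -0.85 to -0.01, adjusted p = 0.0622). Median-of-ratios scaling made it -1.03 (adjusted p = 7.1e-06), which was called.

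The REV-ERB genes differed more between cell types through Nr1d1 than through Nr1d2. Nr1d1 had 20.30, 22.48, 48.59, 48.89 and 7.67 TPM in neuron libraries 1 to 5, 98.89, 78.71, 167.15, 131.97 and 131.02 TPM in the astrocyte libraries, and 6.51, 7.16, 11.01, 8.42 and 3.75 TPM in the microglia libraries. All astrocyte libraries were above all neuron libraries, whereas neuron library 5 fell among the microglia. Nr1d1 was lower in neurons than in astrocytes, with a log2 difference of -2.22 (95% interval -3.03 to -1.41, adjusted p = 9.6e-05). It was higher by 1.67 in neurons (0.86 to 2.48, adjusted p = 8.8e-04) and by 3.89 in astrocytes (3.08 to 4.70, adjusted p = 5.8e-08) than in microglia; 3.89 was the widest difference of any member in any comparison. Of the 3077 exonic bases of Nr1d1 in the annotation, 263 are shared with Thra on the opposite strand, and whether counting used strand is not given in the sources used here. Thra averaged 46.1 TPM in neurons, 23.5 TPM in astrocytes and 11.4 TPM in microglia. Both genes were thus lowest in microglia, while Thra was highest in neurons and Nr1d1 in astrocytes. The part of the shared bases in the Nr1d1 values was not tested.
Nr1d2 had 14.25, 9.37, 18.60, 19.73 and 9.97 TPM in neurons, 22.57, 17.81, 39.31, 38.89 and 27.23 TPM in astrocytes, and 6.90, 7.26, 9.45, 11.44 and 9.33 TPM in microglia. Neuron values overlapped those of both other cell types. The gene was called for astrocyte minus microglia only, at 1.57 (95% interval 1.06 to 2.08, adjusted p = 1.4e-05), and at 0.93 with median-of-ratios scaling it was not. For neuron minus astrocyte its log2 difference was -0.97 (adjusted p = 0.0025), and leaving out neuron library 3 or 4 or astrocyte library 1 or 2 took it past the threshold.

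The output genes Dbp and Ciart were the most abundant of the 10 in neurons. Dbp had 95.01, 106.29, 236.46, 212.45 and 31.42 TPM in neurons, 311.98, 313.66, 356.74, 359.81 and 320.87 TPM in astrocytes, and 30.02, 35.50, 44.18, 42.79 and 29.27 TPM in microglia. The astrocyte libraries were nearly level and above all others, and neuron library 5 lay within the microglia range. Dbp was lower in neurons than in astrocytes, with a log2 difference of -1.58 (95% interval -2.36 to -0.81, adjusted p = 0.0015). It was higher than in microglia by 1.59 in neurons (0.82 to 2.37, adjusted p = 9.4e-04) and by 3.18 in astrocytes (2.40 to 3.95, adjusted p = 4.8e-07). Without the libraries numbered 1 and 2 the neuron minus astrocyte value was -1.55 with an adjusted p of 0.0543, and with median-of-ratios scaling the neuron minus microglia value was 0.99; neither was then called. Dbp shares 539 of its 2993 exonic bases with Sphk2 on the opposite strand, which averaged 4.37 TPM in neurons, 4.41 TPM in astrocytes and 7.92 TPM in microglia.
Ciart had 76.25, 77.04, 186.58, 173.37 and 15.93 TPM in neurons, 91.40, 83.91, 83.46, 82.30 and 68.17 TPM in astrocytes, and 8.73, 11.23, 13.72, 6.96 and 3.61 TPM in microglia. Neuron libraries lay on both sides of the astrocyte range, and all were above the microglia. The log2 difference was -0.04 for neuron minus astrocyte (95% interval -1.04 to 0.97, adjusted p = 0.951), an interval that reaches about as far as the threshold in either direction. Ciart was higher than in microglia by 3.13 in neurons (2.13 to 4.14, adjusted p = 1.4e-05) and by 3.17 in astrocytes (2.17 to 4.18, adjusted p = 1.1e-05). Its window, printed above, was the only member window with more than 1 E-box.

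Within neurons the spread of the members across libraries was graded, widest for Dbp, Ciart and Nr1d1 and narrowest for Per1, Cry1 and Clock. This spread was singled out after the values were seen. Across the 5 neuron libraries Dbp spanned 7.53-fold, Ciart 11.7-fold and Nr1d1 6.37-fold, and the SDs of their log2 values stood at percentiles 99.4, 99.6 and 99.2 of all tested genes. For Per1, Cry1 and Clock the percentile was 10.9, 1.09 and 8.86. The other members lay between, at 90.9 for Per3, 85.6 for Per2, 85.4 for Nr1d2 and 59.7 for Cry2. In astrocytes the same percentile was 6.89 for Dbp, 17.0 for Ciart and 80.1 for Nr1d1, and in microglia it was 53.7, 92.7 and 87.0. Neuron libraries 3 and 4 were highest and library 5 lowest for all 3 genes. Library 5 was 1.78 below the neuron mean for Dbp, 2.25 below for Ciart and 1.55 below for Nr1d1 on the log2 scale. In library 5 the opposite held for Per2, which had its highest neuron value there (5.27 TPM), and for Arntl, the gene of BMAL1. Arntl had 1.5, 1.05, 1.32, 2.04 and 4.90 TPM in neuron libraries 1 to 5. Among libraries 1 to 4 it was highest in library 4, where Nr1d1 was also highest, so the opposition rests on library 5. Among microglia, library 5 was again lowest for Nr1d1, Dbp and Ciart, but not for Per2 (its highest value, 0.89 TPM), and Arntl was lowest there (0.82 TPM). In astrocyte library 5 Ciart was the lowest of the 5 at 68.17 TPM, but Nr1d1 and Dbp, at 131.02 and 320.87 TPM, were not. Astrocyte Arntl was lowest in library 2 (3.75 TPM) and highest in library 3 (10.82 TPM), as was astrocyte Nr1d1 (78.71 and 167.15 TPM).
Transcripts of 12 immediate early genes, which respond within minutes to stimuli and cell handling, moved with this spread among neurons. Their sum was 451, 398, 1204, 1412 and 309 TPM in neuron libraries 1 to 5, 286, 313, 311, 304 and 262 TPM in the astrocyte libraries, and 1450, 1384, 4021, 2583 and 955 TPM in the microglia libraries. Libraries 3 and 4 were highest and library 5 lowest among neurons and among microglia, the same extremes as Nr1d1. Among astrocytes the sum was highest in library 2, where Nr1d1 was lowest. Microglia Ciart was lower in library 4 (6.96 TPM) than in libraries 1 to 3, unlike the sum. Junb and Dusp1 had the highest means in the list over all 15 libraries, and Dusp1 and Ier2 the highest in neurons (228 and 121 TPM). The endothelial sum in neuron libraries 1 to 5 was 8440, 7979, 10875, 12118 and 9394 TPM, the mural sum (7 markers) was 2378, 2624, 4508, 4226 and 3392 TPM, and the mature oligodendrocyte sum was 8344, 10246, 117, 151 and 1506 TPM. Endothelial and mural sums were thus highest in libraries 3 and 4, but library 5 was not their lowest. The part of these in the spread of Dbp, Ciart and Nr1d1 was not tested. An 8-gene glucocorticoid response list, of which Mt1 and Mt2 made up most, summed to 2077 to 3352 TPM in neurons, 29952 to 42192 TPM in astrocytes and 1874 to 3091 TPM in microglia, and neuron library 5 was its highest neuron library. The astrocyte sum was mostly Mt1 and Mt2, which averaged 28107 and 6029 TPM there. Tsc22d3 and Ddit4 also had their highest mean in astrocytes, but Sgk1 and Fkbp5 had it in microglia and Cdkn1a and Zbtb16 in neurons.

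**Figure D3:**
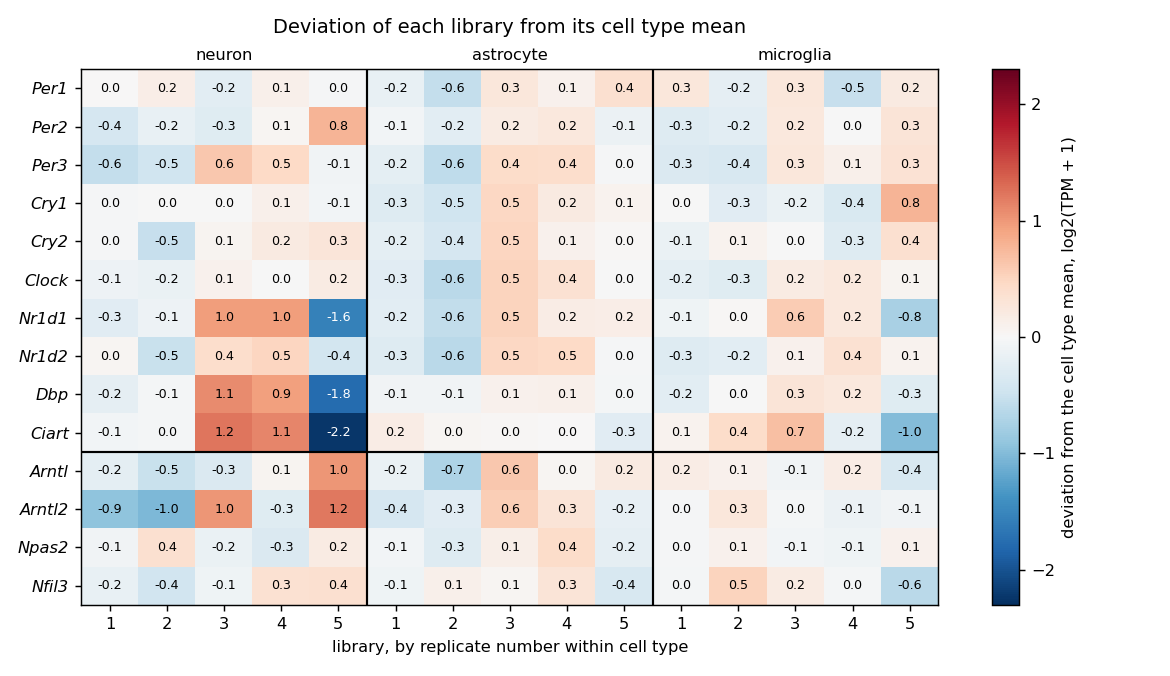
Deviation of each library from the mean of its cell type in log2(TPM + 1), for the 10 clock genes (above the line) and 4 other genes of the pathway; columns are replicate numbers 1 to 5 of neurons, astrocytes and microglia. In neuron library 5 Dbp, Ciart and Nr1d1 lie 1.78, 2.25 and 1.55 below the mean while Per2, Arntl and Arntl2 lie above it.

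Whether libraries with the same replicate number deviated alike was tested for every gene with an F-test in limma, in a model with a term for cell type and a term for the number. Of the 10 members 2 passed, Per3 (adjusted p = 0.0356) and Nr1d2 (adjusted p = 0.0451), where 4.85% of all tested genes did. Adjusted p was 0.0924 for Nr1d1, 0.110 for Ciart, 0.110 for Clock and 0.176 for Dbp. Per3 deviated by -0.37, -0.47, 0.44, 0.33 and 0.07 on average for numbers 1 to 5, and Nr1d2 by -0.18, -0.46, 0.33, 0.44 and -0.13. Averaged over cell types, numbers 1 and 2 were low and numbers 3 and 4 high for both genes, although Nr1d2 in neuron library 1 (14.25 TPM) was above that of neuron libraries 2 and 5. Neither call was firm: the Per3 call was lost on leaving out any of 10 of the 15 libraries in turn, all but astrocyte library 1 and microglia libraries 2 to 5 (adjusted p 0.0504 to 0.0844), and the Nr1d2 call on leaving out any of 14, all but microglia library 2 (adjusted p 0.0541 to 0.105). Without astrocyte library 5, Nr1d1 passed (adjusted p = 0.0278 in the F-test) while Per3 and Nr1d2 did not. With median-of-ratios scaling, quantile normalization or no filter 0 members passed. The mature oligodendrocyte sum was highest in libraries 1 and 2 among neurons and among microglia. In microglia it was 69017 and 50964 TPM in libraries 1 and 2 against 6538, 246 and 8068 TPM in libraries 3 to 5. In astrocytes it was 1099, 3786, 614, 432 and 1269 TPM in libraries 1 to 5, so library 1 was below library 5. The part of this sum in the result was not tested.

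The balance between paralogs within a library, which does not depend on the scaling by a library total apart from the pseudocount, also differed between cell types. Log2 ratios of (TPM + 1) for 4 pairs of genes were compared in 3 pairs of cell types, 12 comparisons in all, by two-sided exact permutation tests with Benjamini-Hochberg adjustment over the 12; the smallest p that 5 against 5 libraries allow is 0.00794. Nr1d1 over Nr1d2 averaged 0.79 ± 0.72 in neurons, 2.04 ± 0.18 in astrocytes and -0.28 ± 0.52 in microglia (SD, n = 5 each). The difference was -1.25 for neuron minus astrocyte and 2.32 for astrocyte minus microglia (exact permutation test, adjusted p = 0.0190 for both, with no overlap between libraries). For neuron minus microglia it was 1.07 (exact adjusted p = 0.0680), and without neuron library 5 it was 1.35 (exact adjusted p = 0.0317).
Cry1 over Cry2 averaged -0.88 ± 0.32 in neurons, -1.59 ± 0.08 in astrocytes and -0.58 ± 0.29 in microglia (SD, n = 5 each), so that Cry2 was the more abundant cryptochrome throughout and by most in astrocytes. The difference was 0.71 for neuron minus astrocyte and -1.01 for astrocyte minus microglia (exact permutation test, adjusted p = 0.0190 for both). Neurons and microglia differed by -0.30 (exact adjusted p = 0.190).
Per1 over Per2 was 0.86 ± 0.48 in neurons, 0.42 ± 0.31 in astrocytes and 1.55 ± 0.38 in microglia (SD, n = 5 each). Astrocyte minus microglia was -1.13 (exact adjusted p = 0.0190). Neuron minus microglia was -0.69 (exact adjusted p = 0.0476), and this call was lost on leaving out any of 9 libraries in turn, all 5 of neurons and microglia libraries 1, 2, 3 and 5 (exact adjusted p 0.0544 to 0.0952). With neuron and microglia libraries of the same number paired, an exact sign-flip test gave an adjusted p of 0.107, where 5 pairs cannot give a p below 0.0625. Per3 over Per2 showed no difference past the threshold as tested here. Neuron minus microglia was -0.64 (exact adjusted p = 0.127), but -0.87 with median-of-ratios scaling (exact adjusted p = 0.0408) and -0.87 without neuron library 3 (exact adjusted p = 0.0317). With a pseudocount of 0.1 neuron minus microglia was -1.46 and astrocyte minus microglia -0.81 (exact adjusted p = 0.0119 for both). With the pseudocount of 1 the second was 0.01, and Per2 was below 1 TPM in every microglia library.

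**Figure D4:**
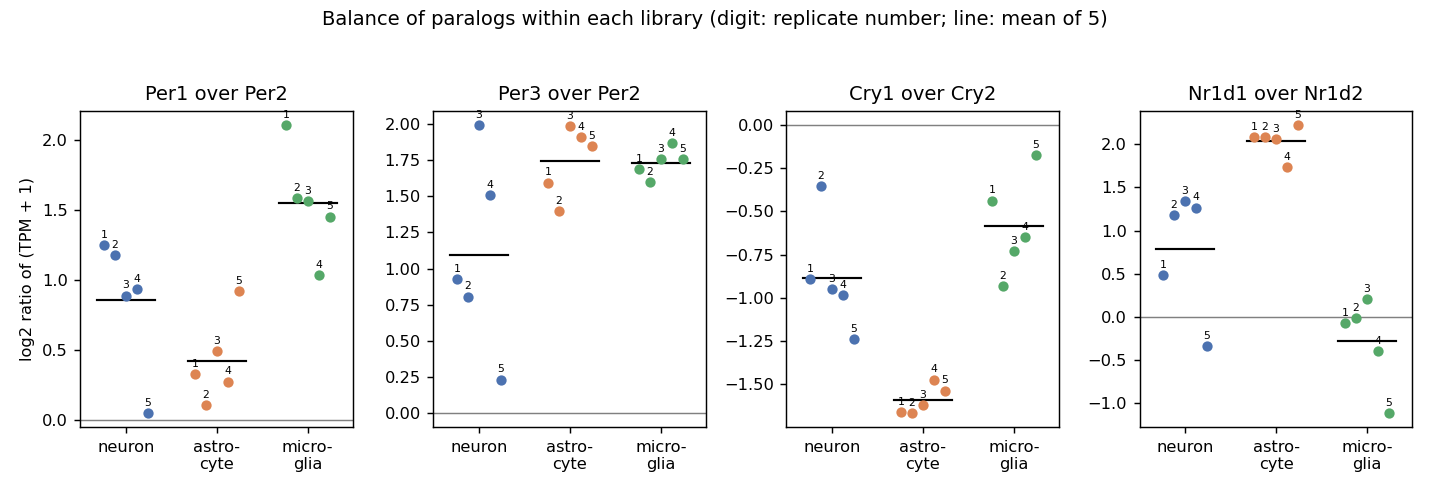
Log2 ratio of (TPM + 1) of 4 pairs of paralogs in each library, with neurons left, astrocytes in the middle and microglia right; points are libraries with their replicate number and lines the mean of 5. Astrocytes have the highest Nr1d1 over Nr1d2 (2.04) and the lowest Cry1 over Cry2 (-1.59), and neuron library 5 is the lowest neuron library in every panel.

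The other genes of the clock pathway were followed in a list of 27, of which 26 were in the table and all 26 were tested, Arntl and Bmal1 being names of the same gene. Of these, 2 were higher and 9 lower in neurons than in astrocytes, 7 higher and 3 lower in neurons than in microglia, and 13 higher and 2 lower in astrocytes than in microglia; their median log2 differences were -0.69, 0.49 and 1.03, beside -0.03, 0.48 and 0.57 for all tested genes. The background of calls was that given for the members: 12.9% higher and 12.7% lower, 29.5% and 9.74%, and 32.3% and 10.2%. With median-of-ratios scaling the counts against microglia were 4 higher and 4 lower for neurons and 10 higher and 5 lower for astrocytes. Values are given for the called gene with the largest difference in each role, and Arntl was added after its values were seen.
Among activators, Npas2, a CLOCK paralog, averaged 0.728 TPM in neurons, 3.94 TPM in astrocytes and 0.136 TPM in microglia. Its log2 difference was -1.51 for neuron minus astrocyte (adjusted p = 3.5e-07), and it was higher in astrocytes than in microglia by 2.10 (adjusted p = 1.7e-09). Arntl was likewise highest in astrocytes, with a difference of -1.40 for neuron minus astrocyte (adjusted p = 2.7e-04) and 1.73 for astrocyte minus microglia (adjusted p = 1.7e-05). Its paralog Arntl2 was higher in neurons than in microglia by 1.74 (adjusted p = 3.7e-04), and its neuron values of 1.09, 0.92, 6.99, 2.26 and 8.18 TPM were highest in library 5. The activator genes thus split: Arntl and Npas2 were highest in astrocytes, while Clock was called in no comparison.
Bhlhe40, an E-box repressor also known as DEC1, averaged 26.2 TPM in neurons, 70.9 TPM in astrocytes and 3.38 TPM in microglia, with differences of -1.44 for neuron minus astrocyte (adjusted p = 5.6e-05), 2.61 for neuron minus microglia (adjusted p = 2.2e-08) and 4.05 for astrocyte minus microglia (adjusted p = 4.5e-11). The ROR receptors compete with REV-ERB proteins at the same elements. Rorb averaged 1.18 TPM in neurons, 17.9 TPM in astrocytes and 0.598 TPM in microglia, with differences of -3.08 (adjusted p = 1.5e-10) for neuron minus astrocyte and 3.52 (adjusted p = 7.7e-12) for astrocyte minus microglia. Rora was higher in neurons than in microglia by 1.98 (adjusted p = 2.3e-09). Both arms that act on Arntl, Nr1d1 as repressor and Rorb as activator, had their highest means in astrocytes.
Nfil3, a repressor at D-boxes, ran the other way to Dbp in the 2 comparisons with astrocytes. In limma its difference was 1.16 for neuron minus astrocyte (adjusted p = 1.6e-04) and -1.27 for astrocyte minus microglia (adjusted p = 3.4e-05). For neuron minus microglia it was -0.11 (adjusted p = 0.668) and was not called. Nfil3 had 1.81 to 3.91 TPM in neurons, 0.32 to 1.10 TPM in astrocytes and 1.69 to 4.84 TPM in microglia. Hlf, a PAR bZIP relative of Dbp, was higher by 1.27 in neurons (adjusted p = 9.2e-05) and by 2.36 in astrocytes (adjusted p = 4.8e-08) than in microglia. The first was 0.81 with median-of-ratios scaling and was not called.
Csnk1e, a kinase that phosphorylates PER proteins, was lowest in astrocytes, with means of 67.5 TPM in neurons, 33.0 TPM in astrocytes and 192 TPM in microglia. Its difference was 1.0 for neuron minus astrocyte (adjusted p = 1.3e-04), -1.46 for neuron minus microglia (adjusted p = 1.0e-06) and -2.46 for astrocyte minus microglia (adjusted p = 9.3e-10); the first fell below 1 on leaving out neuron library 3 or 4 or astrocyte library 1 or 2. Usp2, a deubiquitinase with clock-controlled expression, was lowest in neurons, with differences of -2.26 for neuron minus astrocyte (adjusted p = 1.3e-07) and -2.60 for neuron minus microglia (adjusted p = 9.4e-09). Cipc, a CLOCK-binding inhibitor, was higher in astrocytes than in microglia by 2.00 (adjusted p = 5.5e-08). Nono, an RNA-binding protein that associates with PER, was the only listed gene called for replicate number (adjusted p = 0.0404).

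**Figure D5:**
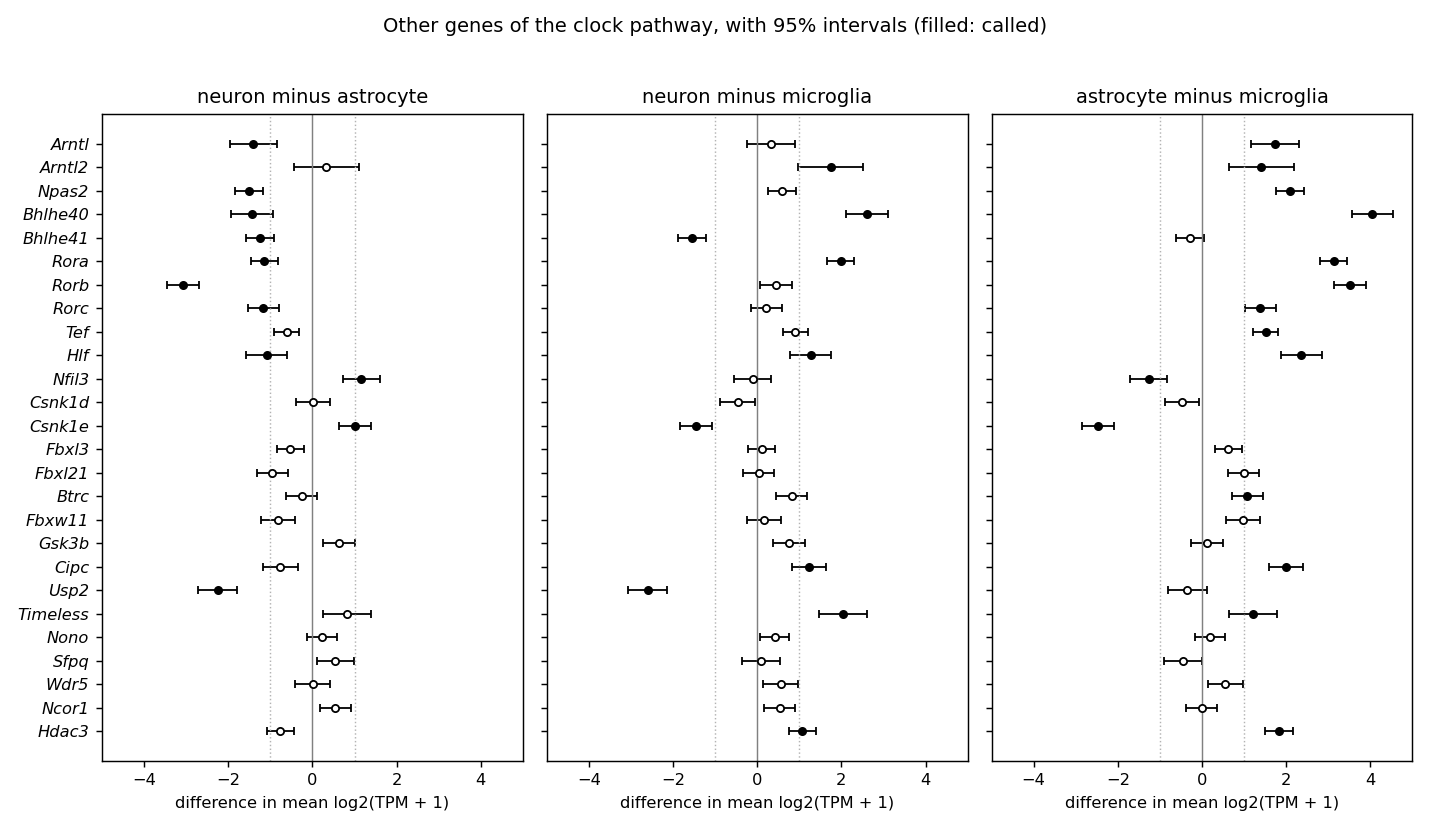
Difference in mean log2(TPM + 1) for the 26 other clock pathway genes with 95% intervals from limma, in the 3 comparisons; filled points were called and dotted lines mark a difference of 1. Bhlhe40, Rorb and Rora have the widest positive differences of astrocytes over microglia, and Csnk1e and Nfil3 are the 2 called lower in astrocytes.

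To find the genes whose pattern was most like that of each member, the profile of log2(TPM + 1) over all 15 libraries was centred on its mean and compared with each of the other tested genes by the root mean square difference. The nearest gene to Dbp was Nr1d1 and the nearest to Nr1d1 was Dbp, at 0.40 on the log2 scale. For the other 8 members the nearest gene lay outside the list: Fv1 for Per1 (0.20), Lamc3 for Per2 (0.18), Lpp for Per3 (0.18), Nrg1 for Cry1 (0.20), Cldn12 for Cry2 (0.16), Atf6 for Clock (0.12), Tbcel for Nr1d2 (0.20) and Ptges for Ciart (0.57). When the cell type means were removed as well, so that only the spread between libraries of a cell type remained, Serpina3g was nearest to both Dbp (0.24) and Nr1d1 (0.21). Each of the pair came next to the other, at 0.24. Genes that vary little lie close to many others by this measure.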

How the data were processed

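The deposited table gives TPM for each gene in 15 libraries. The labels describe column-purified RNA, amplified cDNA, polyA enrichment and paired 150 nt NovaSeq reads, on average 30000000 per sample. The submitters' processing notes name Trim Galore 0.6.4, STAR 2.7.1a, RSEM 1.2.28, DESeq2 1.36.0 and mm10. TPM keeps no read depth, so precision is judged from the spread between libraries alone. In limma that is 1 spread per gene, shared by the 3 cell types, also where the cell types spread unequally. Because TPM is relative to a library total, abundant genes of one cell type lower the values of all others.

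Log2(TPM + 1) was fitted in limma 3.58.1 (R 4.3.3) with a mean per cell type, all 15 libraries and a variance trend, after tests on simulated data. Paralog ratios were tested with exact permutation tests (scipy 1.17.1). Gene coordinates and overlaps come from GENCODE vM21 on mm10, and promoters from RefSeq on GRCm38.p6, the same assembly. The members and gene lists were chosen with earlier results of these data known, and the motifs after promoter windows had been read. Named were all members and, from the other pathway genes, those called for replicate number and the called gene with the largest difference in each role and comparison; for likeness, the nearest genes. Deviations of neuron and microglia libraries with the same number correlated in all 5 pairs (r across genes 0.216 to 0.382). For neurons and astrocytes r was -0.03 to 0.233 and for astrocytes and microglia -0.01 to 0.249, with negative values among them. Libraries of unlike number were not compared, so these values cannot show that the number carries the likeness. The main tests between cell types were unpaired, and pairing by number was run as an alternative only. Alternatives were the pseudocount, filter, scaling, weights, variance trend, replicate block and omission of libraries.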

Additional observations from a re-analysis of the deposited data

Results flagged for a closer look

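In 63 groups of 5 libraries, the highest and lowest library of each cell type was compared with its neighbours, and chance flags about 1 in 20 such groups. Only 2 libraries lay far from the other 4, both for genes outside the 10 members. Arntl2 was 0.42 TPM in microglia library 2, where the other microglia libraries had 0.08 to 0.16 TPM. Bhlhe40 was 5.82 TPM in microglia library 3, where the others had 2.51 to 2.95 TPM; that library also had the highest immediate early sum (4021 TPM), whose part was not tested. None of the 10 members had a library that stood apart by this measure, neuron library 5 included.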

How the results depend on the processing

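No difference of a member between cell types changed sign past the threshold under any alternative run. Each member difference gave 1 value per run. Over single omissions 443 such values stayed on the side of the threshold of the main run and 7 passed it anew. Those 7 were all for Per3 or Nr1d2, neuron minus astrocyte. Under the other settings 342 values stayed, 5 passed it anew and 10 no longer did. Among differences that were not called, the sign turned for Ciart (neuron minus astrocyte, up to 0.52 without neuron library 5), Per1 (-0.14 for neuron minus astrocyte without the libraries numbered 1 and 2, -0.19 for astrocyte minus microglia with quantile normalization) and Clock (0.02 for neuron minus microglia without the libraries numbered 3 and 4). With a pseudocount of 0.1 the members called for neuron minus astrocyte were 5, and they were 3 to 5 over the omissions of single libraries. With median-of-ratios scaling the members called for neuron minus microglia were 3. Other pathway genes called for neuron minus astrocyte were 6 with a filter of 5 TPM, which tests fewer genes, and 7 without the libraries numbered 1 and 2. Members called for replicate number were 1 with a pseudocount of 0.1 and with no variance trend. They were 0 with no filter, with median-of-ratios scaling, with quantile normalization and without microglia libraries 1 and 2. Single omissions gave 0 to 2, and without astrocyte library 5 the 1 member called was Nr1d1. Per3 over Per2 became -1.46 for neuron minus microglia and -0.81 for astrocyte minus microglia with a pseudocount of 0.1, and -0.87 for neuron minus microglia with median-of-ratios scaling. The cause was not tested.

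With the replicate block, limma changed no call of a member. For the paralog ratios the pairing gave an adjusted p of 0.107 for all 6 called differences, which kept their values of -0.69, -1.13, 0.71, -1.01, -1.25 and 2.32; 5 pairs cannot reach p below 0.0625, so this says nothing of their stability. Over single omissions Per1 over Per2 was -0.82 to -0.49, Per3 over Per2 -0.87 to -0.42 and Nr1d1 over Nr1d2 0.86 to 1.35, all for neuron minus microglia, and each passed the threshold in some omissions and not in others. TPM gives no depth, so low values such as Per2 in microglia can be given no counting error.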
